A study of Caenorhabditis elegans with 3 samples.

Results

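The 6 Hox genes of Caenorhabditis elegans, ceh-13, lin-39, mab-5, egl-5, nob-1 and php-3, were examined for called peaks in embryos that carried the zinc finger protein BED-3 fused to GFP. A summit counted as lying at a gene when it fell between 5000 bp upstream of the first annotated 5′ end and the 3′ end of that gene. These 6 genes are taken from 19973 protein-coding genes of the nuclear chromosomes, and each was matched by name in the annotation. The windows together covered 54861 bp in 5 separate regions, because the windows of nob-1 and php-3 share 4764 bp. Summits were taken from 5 deposited lists, namely an optimal list, a list from pooled replicates and a list for each of 3 replicates. The pooled list is labelled as holding peaks and background, so an entry in it need not stand above background.

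Chromatin from whole embryos was precipitated with an antibody against GFP and sequenced. The 1 group held 3 biological replicates, numbered 1, 3 and 4, of the transgenic strain OP651. Its worms carried the unc-119(tm4063) mutation and the insertion wgIs651, which adds bed-3 fused to TY1, EGFP and FLAG tags together with a working unc-119 copy. Embryos of pooled sexes and mixed stages were collected by egg bleaching, and their age is labelled as 4 hours. The tagged protein was expressed from added copies in 1 transgenic line. No control group was analysed here, so a called peak is not by itself evidence that BED-3 bound there.

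Hox genes encode homeodomain transcription factors that give cells their identity along the head-to-tail axis. In the worm they are dispersed in pairs on chromosome III rather than held in a single compact array. They are known for patterning the epidermis, the vulval precursors, migrating neuroblasts and the tail, and Hox proteins bind DNA with PBX and MEIS class partners.

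No optimal peak fell in any of the 6 windows. Among all protein-coding genes, 5.01% had an optimal summit in the same kind of window, and among the 6853 genes whose windows were as long as those of the Hox genes, 5.97% did. A count of 0 of 6 is therefore close to this background. The optimal peak nearest to egl-5 lay 37.54 kb outside its window, on III at 7854587 to 7854808, with a signal of 326 and a rank of 133. It was at the promoter of rpl-35, a gene for a large ribosomal subunit protein, and was also the nearest for mab-5, at 66.2 kb, ceh-13, at 297 kb, and lin-39, at 313 kb. The nearest to nob-1 lay 280 kb outside its window at the histone H3.3 gene his-72. The nearest to php-3 lay 281 kb outside its window at a tRNA gene.

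All 6 genes had at least 1 summit in the pooled list, as did 70.3% of protein-coding genes. The highest pooled summit of each gene, with 50 bp on each side, is printed because these are the strongest called sites of the family. Each is from chromosome III of WBcel235 (ce11), with the sequence from RefSeq, and runs 5′ to 3′ in the direction of transcription of its gene. Capitals mark the letters GTTCGA, explained with the other motifs further on.

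ceh-13, chrIII:7554694-7554794, plus strand: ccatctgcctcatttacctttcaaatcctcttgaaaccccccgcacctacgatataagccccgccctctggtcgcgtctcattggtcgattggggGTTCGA
lin-39, chrIII:7531836-7531936, minus strand: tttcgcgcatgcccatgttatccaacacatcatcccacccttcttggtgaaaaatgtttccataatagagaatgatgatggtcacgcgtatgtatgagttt
mab-5, chrIII:7784392-7784492, minus strand: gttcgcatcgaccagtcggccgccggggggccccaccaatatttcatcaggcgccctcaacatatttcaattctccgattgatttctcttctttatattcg
egl-5, chrIII:7815552-7815652, plus strand: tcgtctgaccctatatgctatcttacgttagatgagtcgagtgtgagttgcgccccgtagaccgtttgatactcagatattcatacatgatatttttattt
nob-1, chrIII:12080706-12080806, minus strand: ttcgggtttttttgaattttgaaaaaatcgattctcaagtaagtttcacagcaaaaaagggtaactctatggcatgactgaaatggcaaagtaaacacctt
php-3, chrIII:12075382-12075482, minus strand: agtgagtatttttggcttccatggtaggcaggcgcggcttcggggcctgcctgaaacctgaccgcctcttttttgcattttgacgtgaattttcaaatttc

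GC content of these 6 windows was 54.5% at ceh-13, 50.5% at mab-5, 48.5% at php-3, 41.6% at lin-39, 39.6% at egl-5 and 33.7% at nob-1. The median over all nuclear pooled summits was 37.6%, and it was also 37.6% over the 22 pooled summits in the Hox windows. The 3 Hox summits with the highest pooled signal, at ceh-13, mab-5 and php-3, were thus the 3 richest in G and C of these 6. This did not extend to all 22, among which the richest, at 137 bp in mab-5 with 61.4%, ranked 14079. Every 31-mer in the 6 printed windows occurs once in the genome. None of the 22 pooled Hox windows held a repeated 31-mer, against 14.7% of all nuclear pooled summits. The replicate lists did hold such windows at Hox summits, 4 of 22 in replicate 1 (18.2%, against 11.7% of all nuclear summits), 3 of 28 in replicate 3 (10.7% against 11.6%) and 2 of 20 in replicate 4 (10% against 14.2%).

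**Figure D1:**
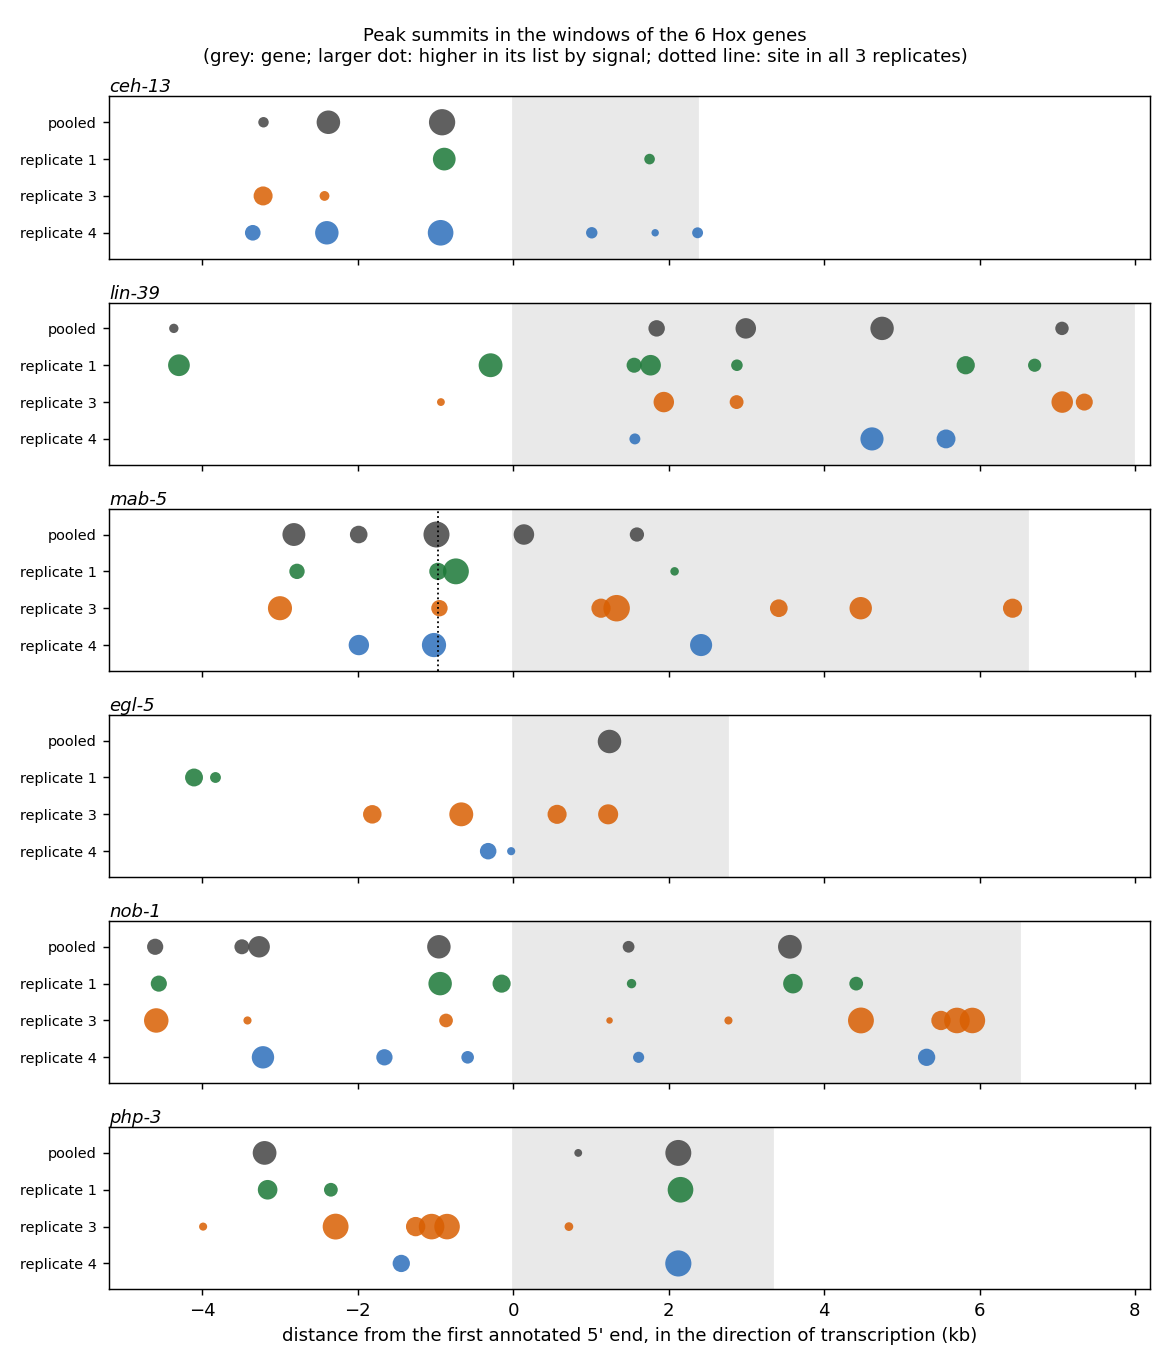
Summits in the window of each Hox gene, by list, against the distance in kb from the first annotated 5′ end in the direction of transcription. Grey marks the gene, a larger dot stands nearer the top of its list by signal, and the dotted line at mab-5 marks the site with a summit in replicates 1, 3 and 4 within 100 bp, while nob-1 and php-3 share the summits where their windows overlap.

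The signal of a peak is the value in column 7 of the deposited lists, the score of the authors' caller, and rank 1 is the highest in a list. The 22 pooled Hox summits had signals from 28.1 to 67.8 with a median of 40.3, against a median of 39.2 and a maximum of 2000 over the whole pooled list of 30000 peaks. The Hox signals thus lay around the middle of the pooled list. In each replicate list the median Hox signal was below the list median. It was 14.8 against 16.03 (replicate 1), 14.9 against 15.4 (replicate 3) and 21.9 against 24.7 (replicate 4). The best pooled rank was 2777 and the median rank 14072.5. In replicate 1 the 22 Hox summits ranked from 3158 to 25097 of 26338. In replicate 3 the 28 Hox summits ranked from 2241 to 29322 of 29455. In replicate 4 the 20 Hox summits ranked from 3028 to 29336 of 30000. No Hox summit was among the 1000 highest peaks of the pooled list or of any replicate list. Those 1000 are a small part of lists of 26338 to 30000 peaks. With 20 to 28 Hox summits in a list, a count of 0 is close to that share.

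By the deposited q values no Hox summit passed the usual threshold in the pooled list or a replicate list. The lowest q at a Hox summit was 0.157 in the pooled list, 0.271 in replicate 1, 0.236 in replicate 3 and 0.132 in replicate 4. At a threshold of 0.05, 0 Hox summits passed in each of these 4 lists. Over whole lists, 5.40% of pooled peaks passed, with 4.27% in replicate 1, 2.62% in replicate 3 and 6.03% in replicate 4. With 20 to 28 Hox summits in a list, a share of this size amounts to few peaks.

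The most anterior gene, ceh-13, the worm counterpart of the labial class, lies at III 7555660 to 7558041 on the plus strand (WBGene00000437). Its window held 3 pooled summits, all upstream of the gene, with 2 summits in replicate 1, 2 in replicate 3 and 6 in replicate 4. The strongest, at -916 bp from the first 5′ end (peak 7554516 to 7554971), had a signal of 67.8 and was the highest pooled Hox summit. Replicate 1 had a summit at -888 bp, ranked 8802, and replicate 4 at -935 bp, ranked 4174. Replicate 3 had none within 100 bp. The reverse held for the summit at -2379 bp in the pooled list, ranked 8479. It was matched at -2429 bp in replicate 3, ranked 27091, and at -2399 bp in replicate 4, ranked 8607, but not in replicate 1. No site of ceh-13 thus had a summit in every replicate.

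The gene lin-39, a Deformed and Sex combs reduced class member that acts in the mid-body and the vulval precursor cells, lies at III 7528641 to 7536632 on the minus strand (WBGene00003024). Its first 5′ end is separated from that of ceh-13, which is transcribed the other way, by 19.0 kb without another protein-coding gene. The lin-39 window held 5 pooled summits, with 7 summits in replicate 1, 5 in replicate 3 and 3 in replicate 4. The highest pooled summit, at 4746 bp inside the gene and in an intron (peak 7531658 to 7532113), ranked 8715 with a signal of 48.0. No replicate had a summit within 100 bp of it, and the nearest, in replicate 4 at 4616 bp, ranked 9242. The best summit of replicate 1, at -292 bp and ranked 6855, lay at -36 bp from the 5′ end of the non-coding gene C07H6.12. The closest agreement of positions between replicates in any Hox window was at lin-39. Replicate 1 had a summit at 2878 bp, ranked 22851, and replicate 3 at 2874 bp, ranked 23159, in the same intron. Both ranks were in the lower part of their lists, and replicate 4 had no summit there.

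A second lin-39 site lay near the 5′ end of its shorter transcript, which starts at 1827 bp. The pooled summit at 1845 bp, ranked 20314, lay in the 5′ UTR of that transcript, 18 bp from its start. Within 100 bp of it, replicate 1 had a summit at 1767 bp, ranked 12183, and replicate 3 at 1937 bp, ranked 13875. Replicate 4 had none that close. Further upstream, at -272 bp and -262 bp from that start, replicate 1 had a summit at 1555 bp, ranked 19455, and replicate 4 at 1565 bp, ranked 26608. Summits of the 3 replicates at this place spread over more than 100 bp. By overlap of whole peak intervals they formed a site, where the best rank was 12183 (replicate 1), 13875 (replicate 3) and 26608 (replicate 4).

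The gene mab-5, an Antennapedia class member known for the posterior migration of Q neuroblast descendants, lies at III 7776835 to 7783454 on the minus strand (WBGene00003102). It held the 1 site of the family at which all 3 replicates had a summit within 100 bp. The summits lay at -970 bp in replicate 1, at -950 bp in replicate 3 and at -1020 bp in replicate 4, a spread of 70 bp. Their signals were 14.7 (replicate 1), 13.5 (replicate 3) and 32.2 (replicate 4). Their ranks were 16847, 20011 and 7121 in the same order. In replicates 1 and 3 the signals were below the list medians of 16.03 and 15.4, and in replicate 4 above the median of 24.7. The pooled summit at -988 bp (peak 7784214 to 7784669) ranked 3307 with a signal of 64.7. Replicate 1 had a stronger summit nearby, at -738 bp with a rank of 3158 and a signal of 23.7, which no other replicate matched within 100 bp.

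The highest-ranked Hox summit of any replicate list also lay at mab-5. It stood at 1330 bp, in a coding exon, in replicate 3, with a rank of 2241 and a signal of 25.9. No summit lay within 100 bp of it in replicate 1 or replicate 4, nor in the pooled list. In all, the mab-5 window held 5 pooled summits, with 4 in replicate 1, 7 in replicate 3 and 3 in replicate 4.

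The gene egl-5, an Abdominal-B class member that patterns the tail, lies at III 7814374 to 7817141 on the plus strand (WBGene00001174), 30.9 kb from the 5′ end of mab-5. It had the fewest pooled summits, 1, at 1228 bp in an intron (peak 7815374 to 7815829), with a rank of 8545 and a signal of 48.3. Replicate 3 had a summit at 1221 bp, ranked 14576. Replicate 3 had 4 summits at egl-5, and replicates 1 and 4 had 2 each. Neither replicate 1 nor replicate 4 had one within 100 bp of the pooled summit. No pair of replicates shared a site here. The summit nearest to the egl-5 5′ end, at -27 bp in replicate 4, ranked 28868.

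The neighbours nob-1 and php-3, further Abdominal-B class genes that pattern the posterior of the embryo, are transcribed in the same direction on the minus strand, nob-1 at III 12077793 to 12084316 (WBGene00003779) and php-3 at III 12074218 to 12077556 (WBGene00004024). The 3′ end of nob-1 lies 237 bp from the 5′ end of php-3, so the php-3 window reaches into nob-1 and a summit in the shared stretch counts for both genes. At nob-1 there were 6 pooled summits, with 6 in replicate 1, 9 in replicate 3 and 5 in replicate 4. At php-3 there were 3 pooled summits, with 3 in replicate 1, 6 in replicate 3 and 2 in replicate 4. The strongest nob-1 summit in the pooled list, at 3560 bp in an intron (peak 12080528 to 12080983), ranked 8045 and also fell in the php-3 window.

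At php-3 the highest pooled summit lay at 2124 bp, in an intron (peak 12075204 to 12075659), with a rank of 3504 and a signal of 63.5. Replicate 4 had a summit at 2124 bp, ranked 3028, and replicate 1 at 2152 bp, ranked 3601. This was the Hox site with the best ranks in a pair of replicates, and replicate 3 had no summit within 100 bp of it. Replicate 3 had its own run of high-ranked summits in nob-1, upstream of php-3. They lay at -852 bp (rank 4257), -1051 bp (rank 4162) and -2286 bp (rank 3577) from the php-3 5′ end. For the summits at -1051 bp and -2286 bp the nearest annotated 5′ end was instead that of a nob-1 transcript that starts at 4881 bp in nob-1. They lay at 828 bp and -407 bp from it. Replicate 1 matched the summit at -2286 bp, with a rank of 20816, and replicate 4 matched none of these 3. The 31-mers around the summit at -1051 bp occur up to 10 times in the genome, and those around the other 2 occur once.

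**Figure D2:**
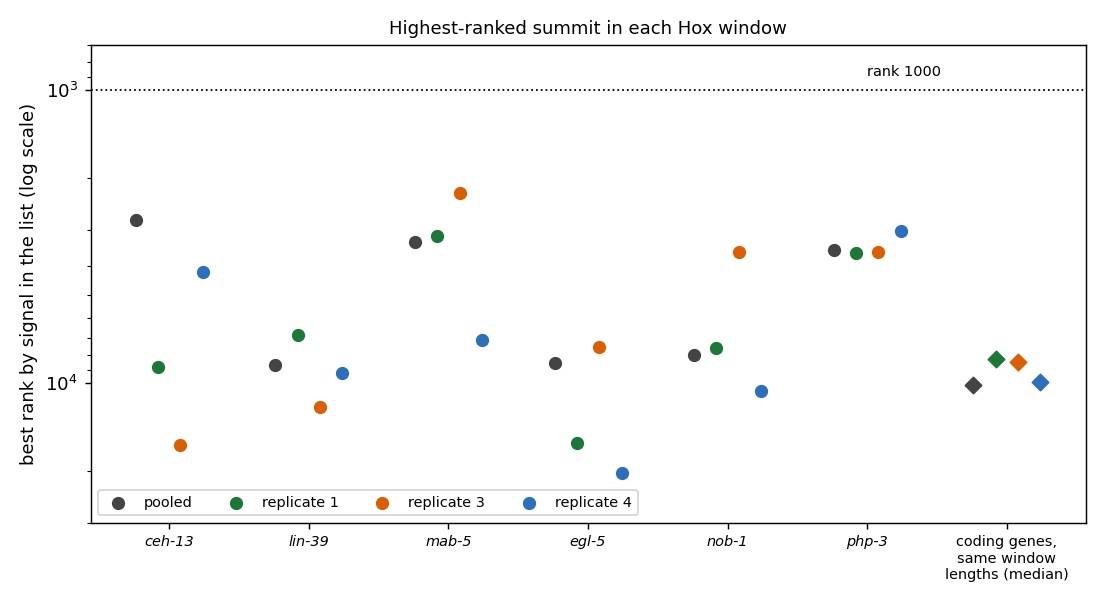
Best rank by signal of any summit in each Hox window, in the pooled list and the 3 replicate lists, on a reversed log axis, with diamonds for the median best rank of coding genes with windows of the same length. All points, the diamonds among them, lie below the line at rank 1000, and the best is mab-5 in replicate 3 at 2241.

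Among the 6853 protein-coding genes with windows from 7382 to 12992 bp, the range of the Hox windows, the median best pooled rank was 10190. The Hox genes ranked 2777 at ceh-13, 3307 at mab-5, 3504 at php-3, 8045 at nob-1, 8545 at egl-5 and 8715 at lin-39. All 6 thus stood ahead of that median, but 21.4% of the genes of this length had a better best rank than ceh-13, and 46.2% had a better one than lin-39. In the replicates the order was not stable. The best rank of ceh-13 was 8802 in replicate 1, 16225 in replicate 3 and 4174 in replicate 4. That of egl-5 was 15979, 7565 and 20222 in the same order of replicates. Against medians of 8261 in replicate 1, 8476 in replicate 3 and 9944 in replicate 4, only mab-5 and php-3 of the 6 stood ahead in each replicate. For php-3 in replicate 3 this rests on a summit in a nob-1 intron, ranked 3577, that counts for both genes. Outside the stretch shared with nob-1, the replicate 3 summit of php-3 ranked 27936.

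Summits were somewhat denser in the Hox windows than over the genome. The union of the windows held 0.401 summits per kb in replicate 1, 0.510 in replicate 3 and 0.365 in replicate 4. The nuclear chromosomes held 0.262, 0.294 and 0.299 per kb in the same order. The ratio was 1.495 ± 0.26 (SD, n = 3), above 1 in 3 of 3 replicates. An exact two-sided permutation test that exchanged the windows and the chromosomes within each replicate gave p = 0.25. This is the smallest value that 3 replicates allow, so the test could not decide whether the density differed. It bears on agreement between replicates only, not on how unusual these windows are in the genome. Against chromosome III, on which all 6 genes lie and which is itself denser, the ratio was 1.26 in replicate 1, 1.45 in replicate 3 and 0.951 in replicate 4, with a mean of 1.22 ± 0.25 (SD, n = 3) and p = 0.5 in the same exact permutation test. Relative to chromosome III the excess therefore did not hold in every replicate and was smaller than the spread between them. Within the 10000 highest peaks of each list the ratio to the nuclear chromosomes was 1.04, so the higher density was in the lower-ranked part of the lists.

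Density varied between replicates as much as between Hox genes. It was 0.579 ± 0.181 summits per kb at nob-1, 0.452 ± 0.313 at ceh-13, 0.440 ± 0.250 at php-3, 0.402 ± 0.179 at mab-5, 0.385 ± 0.154 at lin-39 and 0.343 ± 0.149 at egl-5 (SD, n = 3 each). At ceh-13 replicate 4 held 0.813 per kb and replicates 1 and 3 each held 0.271. At nob-1 and php-3 replicate 3 was the highest, with 0.781 and 0.720. No order of the 6 genes by density stands beyond the spread between replicates.

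**Figure D3:**
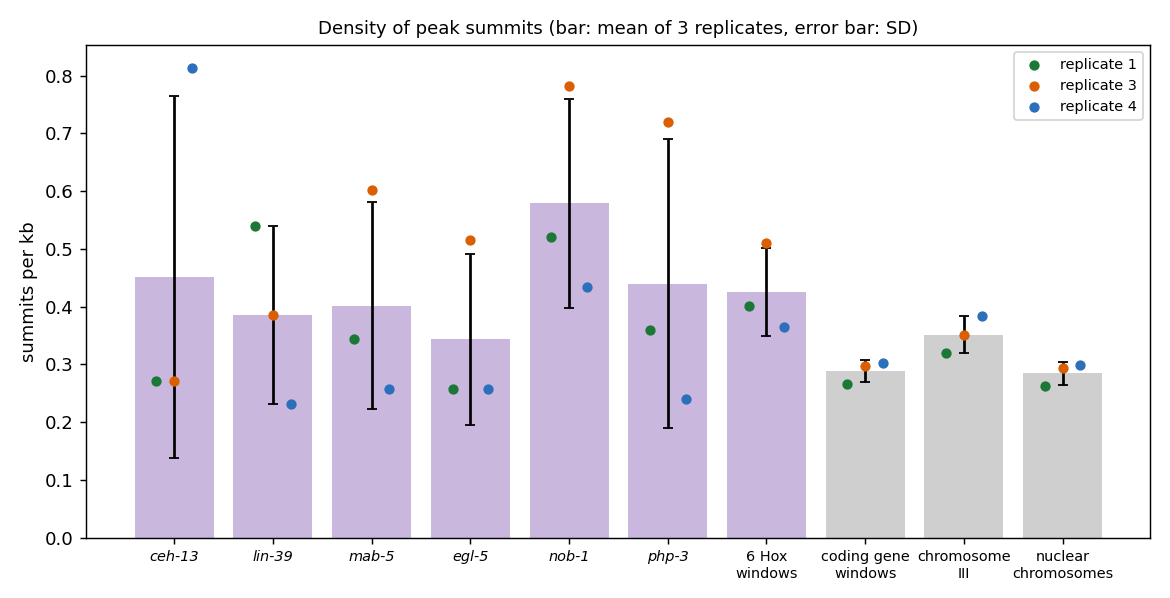
Summits per kb in each Hox window, in the 6 windows together, in the windows of all coding genes, on chromosome III and on the nuclear chromosomes. Bars are the mean of 3 replicates, error bars the SD and dots the replicates, and the Hox windows together averaged 0.425 against 0.351 on chromosome III and 0.285 on the nuclear chromosomes.

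Of the 6 Hox genes, 1 held a site with summits of all 3 replicates within 100 bp, beside 9.85% of all protein-coding genes and 11.4% of those with windows of Hox length. With the lists limited to their 10000 highest peaks, 0 of 6 genes did, beside 5.37%. At least 1 pair of replicates shared a site at 5 of 6 genes, egl-5 being the exception, beside 46% of protein-coding genes and 53.7% of those of Hox length. Each share rests on 6 genes, and nob-1 and php-3 share a site that counts for both.

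Matches of Hox summits within 100 bp were counted for each ordered pair of replicates. Of the 22 Hox summits of replicate 1, 6 had a match in replicate 4 (27.3%, 95% interval 10.7 to 50.2), against 18.2% of all nuclear summits of that list. Of the 28 Hox summits of replicate 3, 2 had a match in replicate 4 (7.14%, 95% interval 0.877 to 23.5), against 16.6%. Of the 20 Hox summits of replicate 4, 2 had a match in replicate 3 (10%, 95% interval 1.23 to 31.7), against 16.3%. In each of the 6 ordered pairs the share over all summits lay within the exact Clopper-Pearson interval of the Hox share. These intervals cover counting error only and are wide at 20 to 28 summits.

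**Figure D4:**
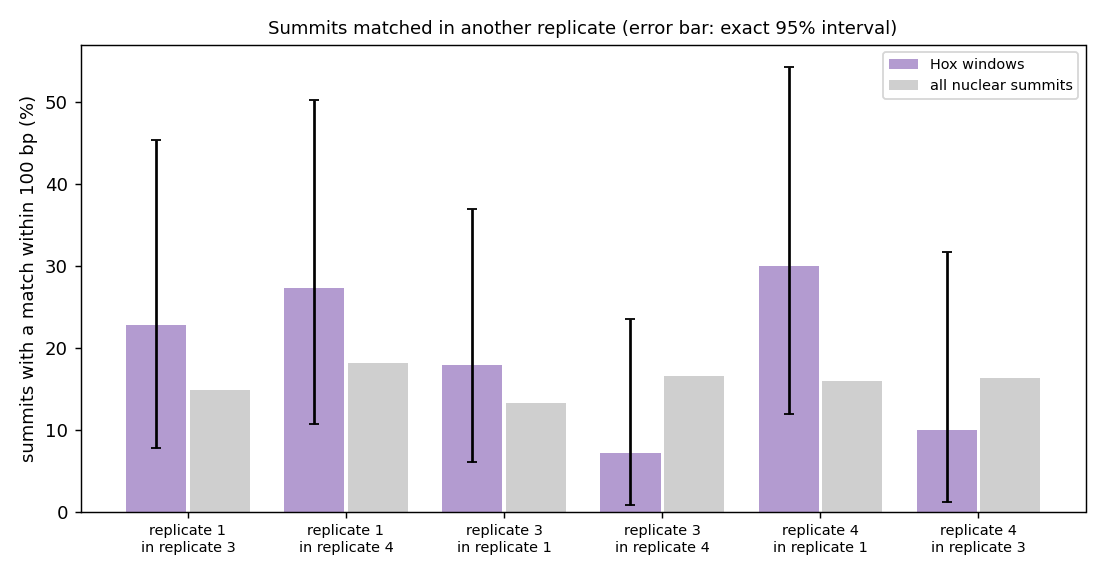
Share of the summits of one replicate that have a summit of another replicate within 100 bp, in percent, for the Hox windows (left bar, with exact 95% interval) and for all nuclear summits (right bar). The grey value lies inside the interval of the Hox value in every pair.

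Support across replicates followed rank in the pooled list. Of the nuclear pooled summits ranked 1 to 1000, 69.7% had a summit within 100 bp in every replicate, of those ranked 1001 to 3000, 23.9%, and of those ranked 3001 to 10000, 5.43%. The pooled list holds the replicates' own reads, so this is a description of the lists. The Hox windows held 0 summits in the first band, 1 in the second and 8 in the third. Support in every replicate was found for 1 of those 8, at mab-5, and for none of the 13 ranked beyond 10000. Over all 22 pooled Hox summits, 1 was matched in 3 replicates, 6 in 2, 10 in 1 and 5 in none. Those shares were 4.55%, 27.3%, 45.5% and 22.7%, beside 5.30%, 24.1%, 51.8% and 18.8% of all nuclear pooled summits.

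**Figure D5:**
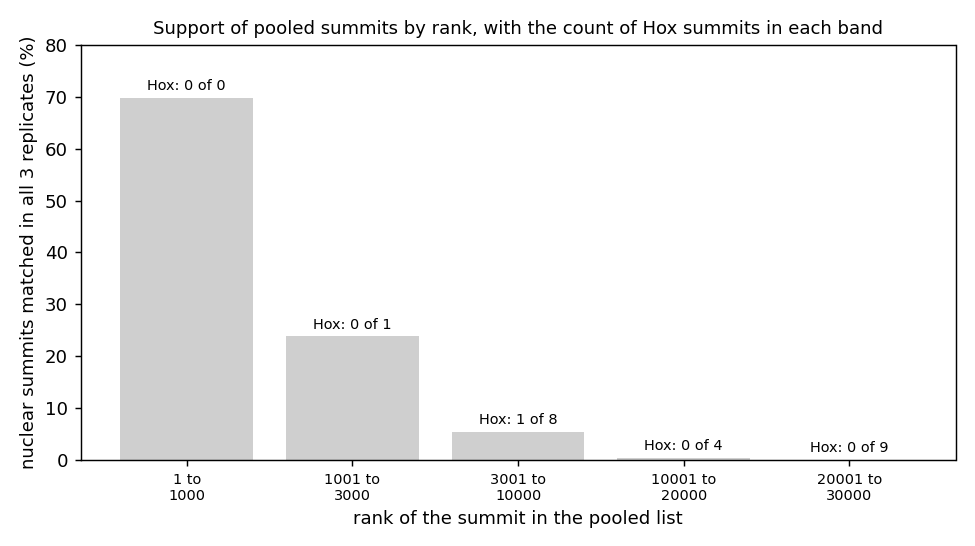
Share of nuclear pooled summits with a summit within 100 bp in all 3 replicates, in percent, by band of rank in the pooled list, with the number of Hox summits supported of those in the band. The share falls to 5.43% in the band from 3001 to 10000, where the 1 supported Hox summit lies.

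By position, 11 of the 22 pooled Hox summits lay between genes or at non-coding genes (50%), 9 in introns of coding genes (40.9%) and 2 in their exons (9.09%). Over all nuclear pooled summits these shares were 39.9%, 40.5% and 19.6%. The replicates differed in this. Exons held 4.55% of the Hox summits of replicate 1 (against 25.4% of all nuclear summits), 21.4% of those of replicate 3 (against 22.8%) and 10% of those of replicate 4 (against 21.98%). With only coding sequence and UTRs counted as exon, fewer Hox summits of replicates 3 and 4 were exonic. Those of replicate 1 and the pooled list did not change, so part of this spread between replicates rests on the rule. The share between genes or at non-coding genes was 50% in replicate 1 (against 37.97%), 35.7% in replicate 3 (against 39.95%) and 50% in replicate 4 (against 39.2%). Of the 6 highest pooled summits, those of ceh-13 and mab-5 were upstream of the gene and those of lin-39, egl-5, nob-1 and php-3 in introns.

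Motifs were searched on both strands at each pooled summit and 50 bp on each side of it. The letters were TGATNNAT for a composite of Hox and PBX, TAATTA for a homeodomain core, AGATAA and also TGATAA for GATA factors, GAGAGA for a GA repeat, the letters GCGCGC, then TTTCNCTTT for a motif like that of BLMP-1, CACGTG for an E-box and GTTCGA for part of the tRNA B box. Among 22 Hox windows, GATA letters were in 2 (9.09%, against 11.0% of all nuclear pooled windows) and the GA repeat in 2 (9.09% against 7.15%). The Hox and PBX letters were in 1 (4.55% against 5.25%), the BLMP-1-like letters in 1 (4.55% against 2.02%) and GTTCGA in 1 (4.55% against 3.83%). The homeodomain core was in 0 (against 4.75%), as were GCGCGC (against 1.87%) and the E-box (against 1.69%). GTTCGA was at the edge of the ceh-13 window printed above, and the printed mab-5 window, the site of all 3 replicates, held none of these letters.

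The window with the most kinds of match and the window with the Hox and PBX letters are shown, and capitals mark each match. The mab-5 summit at 1591 bp, ranked 23113 and in an intron, held the GA repeat, GATA and BLMP-1-like letters. The nob-1 summit at -4608 bp, ranked 20682, held the Hox and PBX letters. Both ranks are in the lower part of the pooled list. The other GA repeat was at the ceh-13 summit at -2379 bp, ranked 8479, and the other GATA match at the nob-1 summit at -3492 bp, ranked 22255.

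mab-5, chrIII:7781813-7781913, minus strand: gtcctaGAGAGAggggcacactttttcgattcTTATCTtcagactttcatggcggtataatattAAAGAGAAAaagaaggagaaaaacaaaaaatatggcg
nob-1, chrIII:12088874-12088974, minus strand: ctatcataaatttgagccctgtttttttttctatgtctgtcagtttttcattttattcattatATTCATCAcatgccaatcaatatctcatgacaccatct

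Genes that work with Hox proteins were counted in the same way. Of 28 such genes, 0 had an optimal peak in the window, beside the 5.01% given above, and 3 had a site in all 3 replicates, beside 9.85% of protein-coding genes. By group these were 1 of 4 cofactors, 2 of 16 genes that act on Hox expression or activity, and 0 of 8 downstream genes. The cofactor was unc-62, a MEIS class homeodomain gene, with a site at -2013 bp whose ranks were 6669 (replicate 1), 13799 (replicate 3) and 15531 (replicate 4). The upstream genes were sop-2, which acts in repression of Hox genes in the manner of Polycomb proteins, and sem-4, a zinc finger gene. The sop-2 site, at -399 bp, ranked 9871, 2698 and 3068 in replicates 1, 3 and 4, and the sem-4 site, at -1913 bp, ranked 11123, 7249 and 5422 in the same order. The PBX class cofactors ceh-20, ceh-40 and ceh-60 had no such site.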

How the data were processed

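Peak lists were deposited by the authors in ce11 coordinates, per the labels. Per the deposited file listing, each replicate list was called from its own alignments and the pooled list from those of replicates 1, 3 and 4, all with the same control. The optimal list passed a threshold on the irreproducible discovery rate and was derived from the pooled list and those of replicates 3 and 4, per the same listing. The aligner and caller used were not given in the sources used here. The signal (column 7) and the −log10 q (column 9) are the deposited values of the authors' caller. The −log10 q was turned into q. Signals are not compared between lists. Depth per sample was not analysed here.

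Gene models were Ensembl release 115 on WBcel235, the same assembly as ce11, and every peak ended within its chromosome. A recurring site is a set of summits, 1 per replicate, all within 100 bp of each other, and sets that share a summit were merged. Analyses used Python 3.11.15, numpy 2.4.6, pandas 2.3.3 and scipy 1.17.1. Site finding was tested on simulated data, with summits sparser than in the deposited lists. Window counting was tested against a direct count in the list of replicate 1. No groups were compared, because the series holds 1 group. The density ratios were tested with an exact permutation test, added after their values were seen, and gene shares are given beside those of all protein-coding genes. The members, lists and motifs were chosen with earlier results of these data known. The search for repeated 31-mers was chosen after seeing the data. All 6 members were named, and other genes by a rule: the gene nearest to such a site or optimal peak, or listed cofactor, upstream or downstream genes with a site in all replicates. The PBX class cofactors, and the gene nearest to the best replicate 1 summit at lin-39, fall outside it and were named after their values were seen.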

Additional observations from a re-analysis of the deposited data

How the results depend on the processing

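The count of 0 optimal peaks held in each alternative tried, including windows from 2000 or 10000 bp upstream. The mab-5 site was lost with summits within 50 bp and with the lists limited to 10000 or 1000 peaks. These settings gave 0 sites and 0 genes, beside 3.94%, 5.37% and 2.83% of protein-coding genes in that order. Overlap of intervals gave 4 sites at 3 genes, beside 27.4% of protein-coding genes and 32.2% of those with windows of Hox length. The cause of these changes was not tested. Leaving out each replicate, which asks for agreement of the other 2, gave 2 to 6 sites at 2 to 5 genes. Beside these stood 24.8% to 28.2% of protein-coding genes, and 29.1% to 33.6% of those with windows of Hox length. With the lists limited to 10000 peaks, Hox summits numbered 9 of 22 in the pooled list. They numbered 5 of 22 in replicate 1, 7 of 28 in replicate 3 and 5 of 20 in replicate 4. Whole lists held 30000, 26338, 29455 and 30000 peaks in the same order. The pooled count was thus above the share of its list kept, and the replicate counts were below theirs. With 1000 peaks the count was 0 in each list. The density ratio was 1.22 against chromosome III, 1.476 against the windows of all coding genes and 1.04 in the top 10000. It was 1.672 with windows from 2000 bp upstream, 1.365 with windows from 10000 bp upstream, and 1.37 to 1.63 with each replicate left out. For the 28 cofactor, upstream and downstream genes the count of 3 was 0 within 50 bp (beside 3.94% of protein-coding genes), 5 within 200 bp (17.96%), 1 in the top 10000 (5.37%), 7 with windows from 10000 bp (14.5%), and 11 to 12 with each replicate left out (24.8% to 28.2%). Motif counts moved to 2 for Hox and PBX, 1 for TAATTA, 5 for GATA and 1 for GCGCGC within 100 bp, and to 1 for the GA repeat and 0 for GTTCGA within 25 bp. In all, 38 of 75 alternatives stayed within 1.5 times the count or 1 SD of the ratio.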
